A study of Mus musculus with 12 samples.

Results

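The 9 genes that encode the main calcium channels, pump and calcium sensors of the endoplasmic reticulum in neurons were examined in ribosome-bound mRNA from CA1 pyramidal neurons of wild-type and Fmr1 KO mice. They are the inositol trisphosphate (IP3) receptors Itpr1, Itpr2 and Itpr3, the ryanodine receptors Ryr1, Ryr2 and Ryr3, the pump Atp2a2 (SERCA2), and the store sensors Stim1 and Stim2. The genes were taken by symbol from the deposited table of read counts, which holds 24079 genes, and all 9 passed the filter of at least 15 reads summed over the 12 libraries, as did 17823 genes in all. The study compared 6 wild-type with 6 Fmr1 KO libraries to find mRNAs whose ribosome association differs when FMRP, the RNA-binding protein encoded by Fmr1, is missing.

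Every library came from pooled hippocampi of 4 to 6 mice. Both groups were adult C57BL/6J males aged 2 to 6 months that carried the Wfs1-CreERT2 transgene and the RiboTag allele, and both received tamoxifen at 100 mg/kg on 3 days and were used 1 week later. The Cre recombinase is expressed under the Wfs1 promoter, which is active in CA1 pyramidal cells of the hippocampus, and it switches the ribosomal protein Rpl22 to a form with an HA tag. The Fmr1 KO mice (Fmr1-/y) lacked Fmr1 in all their cells from conception, and the wild-type mice were their littermates. Tagged ribosomes were pulled down from the whole hippocampus, so that RNA of other cells could be carried along.

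The endoplasmic reticulum is the main internal calcium store of a neuron. SERCA pumps fill it at the expense of ATP. IP3 receptors release calcium when phospholipase C, for instance downstream of group I metabotropic glutamate receptors, produces IP3, and ryanodine receptors release it when cytosolic calcium rises. Stim proteins sense the calcium level in the lumen and, when it falls, open Orai channels in the plasma membrane so that calcium can enter and the store can be refilled. In CA1 pyramidal cells the store extends into dendrites and some spines and is known for its part in synaptic plasticity.

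The 9 genes lie on 6 chromosomes (coordinates on GRCm38, the same build as mm10). The gene spans were taken from RefSeq by symbol, and the coding stretches below from GENCODE M21 by Entrez identifier. Itpr1 (Entrez 16438) spans chromosome 6 from 108213083 to 108551116 and Itpr2 (16439) the same chromosome from 146108299 to 146502258, whereas Itpr3 (16440) spans chromosome 17 from 27057002 to 27122223. Ryr1 (20190) spans chromosome 7 from 29003340 to 29125179, Ryr2 (20191) chromosome 13 from 11553099 to 12106945 and Ryr3 (20192) chromosome 2 from 112631354 to 113217405. Atp2a2 (11938) spans chromosome 5 from 122453513 to 122502225, Stim1 (20866) chromosome 7 from 102261514 to 102437319 and Stim2 (116873) chromosome 5 from 53998523 to 54121057.

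The release channel and sensor families can be recognised in short stretches of coding sequence around the site on which each protein's function turns. The 6 release channels share a selectivity filter at the mouth of the pore, and the capitals in these 60-base stretches mark its codons, each written 5′ to 3′ on the coding strand and lying within 1 exon.
Itpr1, chr6:108518767-108518826, plus strand, exon 58 of 62: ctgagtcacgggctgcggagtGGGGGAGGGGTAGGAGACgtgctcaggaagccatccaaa
Itpr2, chr6:146158890-146158949, minus strand, exon 53 of 57: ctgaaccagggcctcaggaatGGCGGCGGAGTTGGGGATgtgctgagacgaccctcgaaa
Itpr3, chr17:27118610-27118669, plus strand, exon 54 of 58: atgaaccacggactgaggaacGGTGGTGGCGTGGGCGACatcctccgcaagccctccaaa
Ryr1, chr7:29005577-29005636, minus strand, exon 105 of 109: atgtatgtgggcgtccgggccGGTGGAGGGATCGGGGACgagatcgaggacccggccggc
Ryr2, chr13:11560606-11560665, minus strand, exon 101 of 105: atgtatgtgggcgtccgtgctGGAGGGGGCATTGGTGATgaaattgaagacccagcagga
Ryr3, chr2:112636610-112636669, minus strand, exon 100 of 104: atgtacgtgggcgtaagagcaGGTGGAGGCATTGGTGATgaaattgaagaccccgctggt

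Between IP3 receptor genes 17 to 20 of the 60 bases differed, between ryanodine receptor genes 10 to 15, and between Itpr1 and Ryr2 32. For the Stim genes the capitals mark the codons of the calcium-binding loop of the luminal EF-hand, with which the protein reads the filling of the store.
Stim1, chr7:102354572-102354631, plus strand, exon 2 of 12: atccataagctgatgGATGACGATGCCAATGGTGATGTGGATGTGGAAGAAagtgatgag
Stim2, chr5:54053447-54053506, plus strand, exon 2 of 13: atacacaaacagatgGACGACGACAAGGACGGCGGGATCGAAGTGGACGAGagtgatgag

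The Stim stretches differed at 19 bases. Whether a sequenced read of 50 bases could match another gene exactly was checked over all 50-base windows of the annotated transcripts. None of the windows of a member occurred unchanged in another member. Windows that differ at a few bases were not examined, although the authors kept reads with up to 3 mismatches. Windows also found in some other gene made up 3.88% of those of Atp2a2 and 0.0711% of those of Ryr2, and there were 0 for the other 7 genes.

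Between 39400980 and 55745464 reads were counted on genes in a wild-type library (median 41711923), and between 43106629 and 65565479 in an Fmr1 KO library (median 49579609). As the labels require, the wild-type libraries held 1971 to 2608 reads of Fmr1, 5 Fmr1 KO libraries held 0 and the remaining one held 1. The summed level of 7 CA1 pyramidal markers was 8020 to 9883 CPM (counts scaled to a common library size by edgeR's TMM method) in wild-type and 7643 to 9156 CPM in Fmr1 KO libraries. Markers of other cells were present as well: 6 choroid plexus markers summed to 6408 to 11902 CPM in wild-type and 8336 to 17572 CPM in Fmr1 KO libraries, and 8 astrocyte markers to 2407 to 2918 CPM and 2633 to 3983 CPM. The means of the Fmr1 KO libraries were 91.9% of wild-type for the CA1 list, 119% for astrocytes, 128% for endothelial cells (100 to 149 CPM against 123 to 188 CPM) and 136% for choroid plexus. At an unadjusted p under 0.05, which 4.29% of all genes passed as higher and 3.67% as lower, 5 of 8 astrocyte, 5 of 7 endothelial and 4 of 6 choroid plexus genes were higher and 1 of 7 CA1 genes, Wfs1, was lower. The oligodendrocyte list went the other way, at 89.0% of wild-type with 1 of 7 genes lower and 0 higher, and microglial and mural markers were at 104% each with 0 genes in either direction. The other neuronal lists were at 103% for CA2, 106% for CA3, 96.2% for dentate granule cells and 93.2% for GABAergic interneurons. Of these, CA2 had 1 of 5 genes lower and 1 higher, CA3 and dentate each 1 of 6 higher, and interneurons 0 of 8 in either direction. No gene of the 11 marker lists passed the adjusted threshold, and none was without reads in any library. These shifts ran alongside the genotype, and in bulk libraries fewer cells of a type and less RNA per cell cannot be told apart.

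Atp2a2 and Itpr1 had the highest levels of the 9 genes. Since a long transcript gives more reads than a short one, levels were compared between genes as CPM per kilobase of exon. In wild-type libraries Atp2a2 was at 155 ± 7.32 CPM per kilobase (SD, n = 6, as for all means here), followed by Itpr1 at 57.6 ± 3.16, Stim2 at 36.8 ± 2.45 and Stim1 at 18.0 ± 0.989. The ryanodine receptors came next, with Ryr2 at 11.4 ± 0.681 and Ryr3 at 3.50 ± 0.288 CPM per kilobase. The lowest levels were those of Itpr2 at 0.985 ± 0.113, Ryr1 at 0.745 ± 0.0201 and Itpr3 at 0.139 ± 0.0376 CPM per kilobase. Each gene was above the next one in this order in 12 of 12 libraries. The closest neighbours were Itpr2 and Ryr1, whose levels per kilobase differed by a factor of 1.06 in the library where they were nearest. On the scale of CPM without regard to length, Atp2a2 and Itpr1 were above 99.3% and 98.7% of the genes tested, and Itpr3 was above 25.0%.

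**Figure D1:**
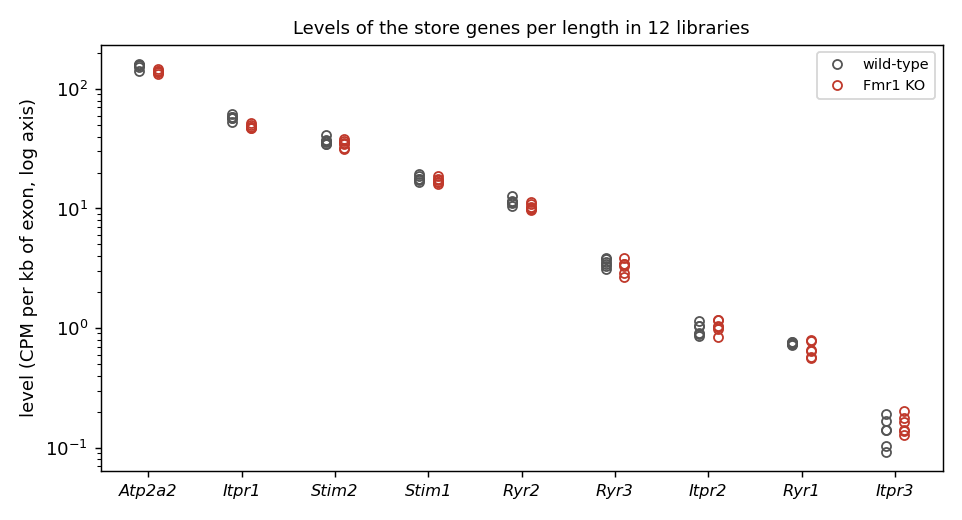
Level of each of the 9 store genes in CPM per kilobase of exon (log axis), with 1 circle for each of the 6 wild-type (grey) and 6 Fmr1 KO (red) libraries. The order of the genes was the same in all 12 libraries, from Atp2a2 at the top to Itpr3, and the genotypes lie close together compared with the differences between genes.

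Within each family 1 gene predominated and its share was similar in both genotypes. Itpr1 made up 98.1 ± 0.279% of the summed IP3 receptor level per kilobase in wild-type and 97.6 ± 0.284% in Fmr1 KO libraries. Ryr2, the isoform best known from heart muscle and also the main brain isoform, made up 72.9 ± 1.67% and 72.6 ± 2.37% of the ryanodine receptor level. Ryr3 held 22.4 ± 1.63% and 22.7 ± 1.98%, and Ryr1, the skeletal muscle isoform, 4.76 ± 0.271% and 4.66 ± 0.597%. Stim2, the sensor that responds to smaller drops of luminal calcium, made up 67.1 ± 1.97% and 66.9 ± 2.13% of the Stim level. The ratio of Itpr1 to Ryr2 was 5.05 ± 0.383 in wild-type and 4.71 ± 0.226 in Fmr1 KO libraries. Itpr1 relative to the pump Atp2a2 was 0.373 ± 0.0199 (0.354 to 0.411) and 0.349 ± 0.00583 (0.342 to 0.354), and these ranges met. Ryr2 relative to Atp2a2 was 0.0740 ± 0.00596 and 0.0741 ± 0.00334. These shares and ratios describe the libraries and were not tested.

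The comparison of the genotypes gave no member past the threshold in edgeR's quasi-likelihood test, in which p-values were adjusted by the Benjamini-Hochberg method over all 17823 genes and a gene was called at an adjusted p under 0.05. Over all genes this threshold was passed by 4, or 0.0224%. At an unadjusted p under 0.05, 3 of the 9 members were lower in Fmr1 KO libraries, Itpr1, Ryr2 and Atp2a2, where 3.67% of all genes were, and 0 members were higher, where 4.29% of all genes were. These 3 genes are the release channel with the highest level per kilobase in each family and the pump. The fold change (log2, Fmr1 KO over wild-type throughout) was below zero for 7 of the 9 members, as it was for 48.6% of all genes, and the median over the members was -0.11 against 0.0042 over all genes. The 3 genes also had the smallest SEs of the 9, 0.051 to 0.057. Ryr1, with an SE of 0.10, had a fold change of -0.16, more negative than those of Ryr2 (-0.14) and Atp2a2 (-0.15). Passing the unadjusted p thus does not mark the 3 genes as those with the largest decreases. Among the 9693 genes with a mean of at least 10 CPM, which include all members but Itpr3, the fold change was below zero in 50.8% and 4.75% were lower at an unadjusted p under 0.05.

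Itpr1 encodes the IP3 receptor that predominates in central neurons. Its lowest, median and highest levels were 518, 569 and 615 CPM in the 6 wild-type libraries and 467, 477 and 511 CPM in the 6 Fmr1 KO libraries. All 6 Fmr1 KO libraries were below all wild-type libraries, with 511 CPM as the highest of the former and 518 CPM as the lowest of the latter. In edgeR's test the fold change was -0.24 (SE 0.052, 95% interval -0.35 to -0.13), which put the Fmr1 KO mean at 84.7% of wild-type, with an unadjusted p of 0.000275 and an adjusted p of 0.181. It had the 25th smallest p of all genes. A gap of this kind, with all Fmr1 KO libraries below all wild-type libraries, was found for 73 genes (0.410%), and the opposite gap for 38 (0.213%). DESeq2's Wald test on the same counts called Itpr1 with an adjusted p of 0.00419, 1 of 84 genes called among the 14713 to which it gave an adjusted p (0.571%). Whether Itpr1 was called thus depended on the test, while its fold change was -0.24 in both. The study itself used DESeq2 at an adjusted p under 0.05, and it reports Itpr1 as a downregulated mRNA bound by FMRP.

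The other IP3 receptors were at a small fraction of the level of Itpr1 and overlapped between genotypes. Itpr2, the isoform most sensitive to IP3 and prominent in astrocytes, ran from 10.2 over a median of 11.5 to 13.5 CPM in wild-type and from 9.90 over 12.05 to 13.7 CPM in Fmr1 KO libraries. Its fold change in edgeR was 0.06 (SE 0.10, 95% interval -0.15 to 0.28, adjusted p 0.938). Itpr3, which is found mainly in epithelial cells, ran from 0.831 over 1.27 to 1.72 CPM and from 1.15 over 1.36 to 1.83 CPM, values that rest on 37 to 99 reads a library. Its fold change in edgeR was 0.18 with a wide 95% interval of -0.29 to 0.65 (adjusted p 0.912). The interval of Itpr1 therefore lay wholly below zero while those of Itpr2 and Itpr3 included zero, but the differences between these genes' fold changes were not tested.

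**Figure D2:**
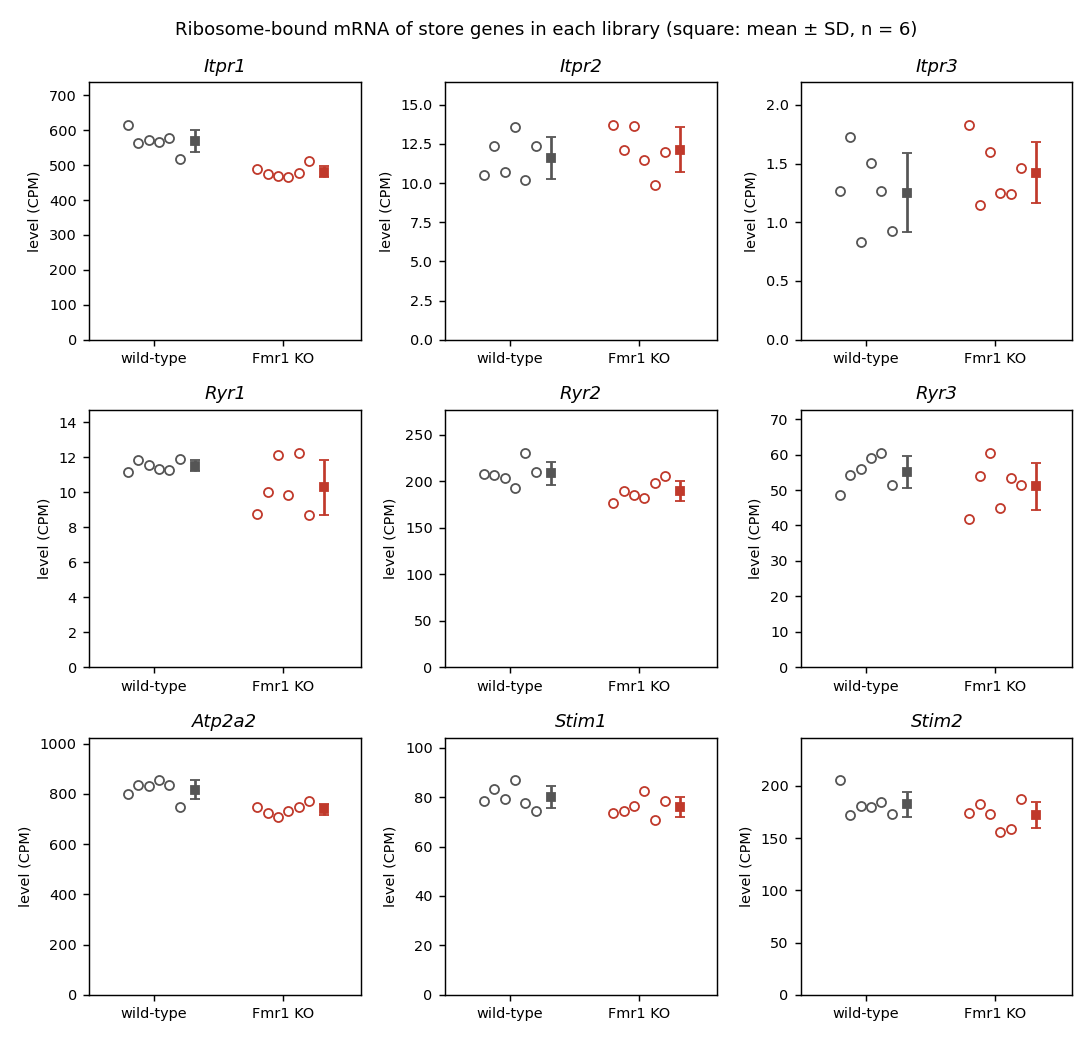
Level of each store gene in CPM in every wild-type (grey) and Fmr1 KO (red) library, shown as circles, with the group mean and SD (n = 6) as a square with bars; each axis starts at 0. Itpr1 is the gene whose groups do not overlap, Ryr1, Ryr2 and Atp2a2 have 4 Fmr1 KO libraries each below all wild-type libraries (with the other 2 of Ryr1 above them), and the remaining 5 genes overlap more.

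Ryr2 had lower values in most Fmr1 KO libraries. The lowest, median and highest levels were 192, 207 and 230 CPM in wild-type and 176, 187 and 206 CPM in Fmr1 KO libraries. The groups overlapped, with 4 of the 6 Fmr1 KO libraries below all wild-type libraries and all 6 below the wild-type median. The fold change of Ryr2 in edgeR was -0.14 (SE 0.057, 95% interval -0.26 to -0.02), with an unadjusted p of 0.0259 and an adjusted p of 0.539. The unadjusted p of Ryr2 was 0.0614 without Fmr1 KO replicate 1 and 0.0767 without wild-type replicate 5.

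The other ryanodine receptors overlapped between genotypes and had larger SDs in Fmr1 KO libraries, a difference that was not tested. Ryr3, the isoform first known from brain and enriched in hippocampus, ran from 48.6 over a median of 55.1 to 60.5 CPM in wild-type and from 41.8 over 52.5 to 60.4 CPM in Fmr1 KO libraries. Its fold change in edgeR was -0.11 (SE 0.086, 95% interval -0.29 to 0.08, adjusted p 0.828). Ryr1 ran from 11.2 over 11.5 to 11.9 CPM in wild-type and from 8.70 over 9.94 to 12.3 CPM in Fmr1 KO libraries. There 4 Fmr1 KO libraries were below all wild-type libraries and the other 2 above all of them. The SD was 1.57 CPM in Fmr1 KO against 0.311 CPM in wild-type libraries. The wild-type values rest on 444 to 601 reads a library, and their CV (SD over mean) of 2.70% was the lowest among the members. At such read numbers counting noise alone gives a larger spread on average. The split and the SD contrast therefore depend on an unusually narrow wild-type range. The fold change of Ryr1 in edgeR was -0.16 (SE 0.10, 95% interval -0.37 to 0.05, adjusted p 0.759).

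Atp2a2 encodes the SERCA2 pump, the form that fills the store in neurons and in heart. It had the highest level of the members, with a lowest, median and highest value of 747, 832 and 854 CPM in wild-type and of 708, 739 and 771 CPM in Fmr1 KO libraries. All 6 Fmr1 KO libraries were below the wild-type median, and 4 were below all wild-type libraries. The overlap came from wild-type replicate 6, which had the lowest wild-type values of Atp2a2, Itpr1 and Stim1. In edgeR the fold change of Atp2a2 was -0.15 (SE 0.051, 95% interval -0.25 to -0.04), with an unadjusted p of 0.0108 and an adjusted p of 0.440, and the adjusted p of DESeq2 was 0.140.

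The store sensors overlapped between genotypes. Stim1 ran from 74.4 over a median of 78.9 to 86.8 CPM in wild-type and from 70.8 over 75.5 to 82.5 CPM in Fmr1 KO libraries, with a fold change in edgeR of -0.07 (95% interval -0.20 to 0.05, adjusted p 0.828). Stim2 ran from 172 over 180 to 205 CPM and from 156 over 174 to 187 CPM, with a fold change of -0.09 (95% interval -0.22 to 0.05, adjusted p 0.811 in edgeR). For each of the sensors 2 Fmr1 KO libraries were below all wild-type libraries. The intervals leave room for a decrease of up to 0.20 and 0.22 on the log2 scale, and for little increase.

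**Figure D3:**
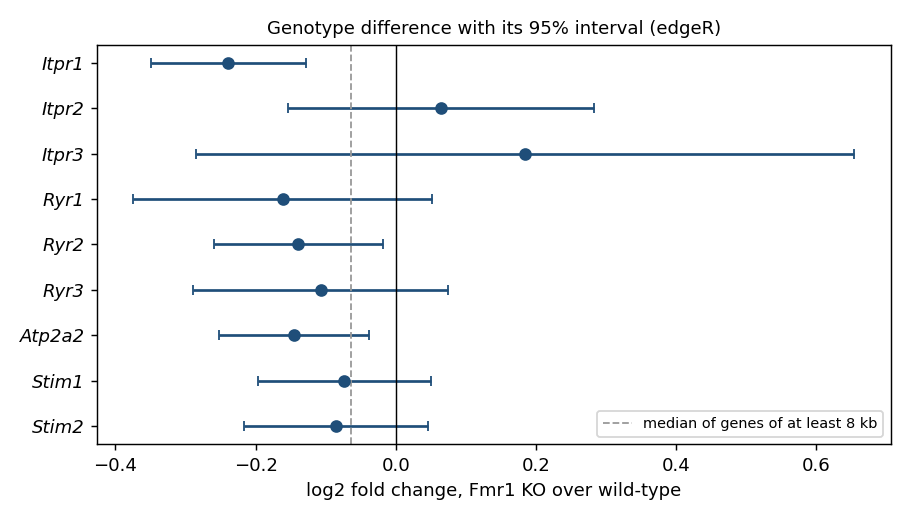
Fold change (log2, Fmr1 KO over wild-type) of the 9 store genes in edgeR with its 95% interval, and a dashed line at the median of genes with at least 8 kilobases of exon (-0.06). The intervals of Itpr1, Ryr2 and Atp2a2 lie below zero, although no adjusted p of the 9 genes was under 0.05.

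The genotypes also differed along gene length, and 6 of the members, the IP3 and ryanodine receptors, have at least 8 kilobases of exon (8990 to 18230 bases). Among genes with a mean of at least 10 CPM, the median fold change was 0.04 for the 1794 genes under 2 kilobases, 0.01 for the 3563 genes of 2 to 4 kilobases, -0.03 for the 3403 genes of 4 to 8 kilobases and -0.06 for the 853 genes of 8 kilobases or more. The share of genes lower at an unadjusted p under 0.05 was 0.948%, 2.98%, 6.73% and 12.3% in these classes. Read against the longest class, 54 of 853 genes (6.33%) had a fold change as low as that of Itpr1 or lower, which was more negative than the fold change of most long genes. The share was 18.9% for Ryr1, 24.3% for Ryr2 and 33.9% for Ryr3, and 85.3% for Itpr2. Atp2a2, Stim1 and Stim2 have 4447 to 5277 bases of exon and belong to the class with a median of -0.03.

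Whether single libraries lean toward long or short genes was measured by an index, the median log2 deviation of the long genes minus that of the genes under 2 kilobases. The index ran from -0.22 to 0.21 in wild-type (median 0.15) and from -0.26 to 0.22 in Fmr1 KO libraries (median -0.10). With the index as a covariate, a fit chosen after seeing the data, the fold change of Itpr1 in edgeR was -0.24 (adjusted p 0.0624), that of Ryr2 -0.14 and that of Atp2a2 -0.13. Among the other members it was 0.07 for Itpr2, 0.23 for Itpr3, -0.15 for Ryr1, -0.08 for Ryr3, -0.04 for Stim1 and -0.11 for Stim2. The part of gene length in the members' fold changes was not tested beyond these values.

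**Figure D4:**
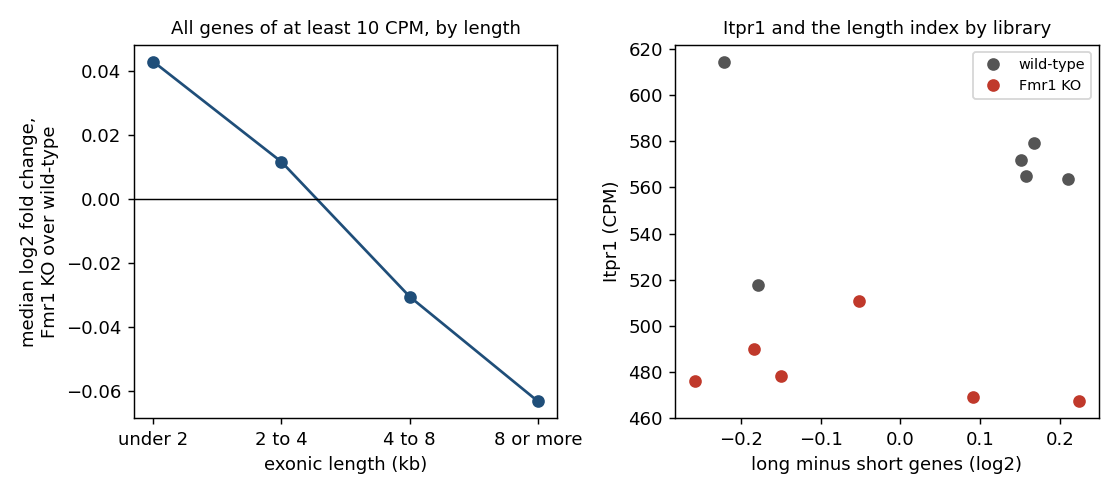
Left, median fold change (log2, Fmr1 KO over wild-type) of genes with a mean of at least 10 CPM in 4 classes of exonic length, falling from 0.04 to -0.06. Right, Itpr1 level (CPM, axis not from 0) against the index of long minus short genes (log2) in each wild-type (grey) and Fmr1 KO (red) library. The Itpr1 levels of the genotypes do not overlap, so the red points lie below the grey ones whatever the index. The panel therefore does not show what part the index has in the difference.

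Cell composition was treated in the same way, with 2 further covariates chosen after seeing the data. With the score of the CA1 markers, the fold change in edgeR was -0.21 for Itpr1 (unadjusted p 0.000817, adjusted p 0.331), -0.15 for Atp2a2 and -0.10 for Ryr2, whose unadjusted p was then 0.111. For Stim2 it was -0.01, against -0.09 without the covariate. With the score of the 6 lists of non-neuronal markers it was -0.25 for Itpr1 (unadjusted p 0.00103, adjusted p 0.624 in edgeR), -0.16 for Atp2a2 and -0.07 for Ryr2 (unadjusted p 0.282). The same score moved Itpr3 from 0.18 to 0.04, Ryr1 from -0.16 to -0.08, Ryr3 from -0.11 to -0.04 and Itpr2 from 0.06 to -0.03. It averages the genes of 6 lists that did not move together. Their sums were at 89.0% of wild-type for oligodendrocytes, 104% for microglia and mural cells, 119% for astrocytes, 128% for endothelial cells and 136% for choroid plexus. Opposing shifts can thus cancel in this score. The marker scores differ between the genotypes, so that the parts of composition and genotype in these values cannot be told apart.

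Around the store, 7 lists with 119 genes were read in the same test, of which 117 passed the filter. No gene of these lists passed the adjusted threshold in edgeR (lowest adjusted p 0.338) or in DESeq2. At an unadjusted p under 0.05, which 3.67% of all genes passed as lower and 4.29% as higher, 8 genes were lower and 13 higher, and the median fold change was 0.03.

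The Orai and Trpc channels of store-operated entry and their partners had 4 of 16 genes lower, against 3.67% of all genes, and 0 higher at an unadjusted p under 0.05, with a median fold change of -0.07. The smallest p in this list was that of Trpc5, a cation channel, with wild-type libraries at 7.90 ± 1.38 CPM and Fmr1 KO libraries at 5.92 ± 0.659 CPM (fold change -0.41, SE 0.13, adjusted p 0.365 in edgeR). The most abundant gene of the list was Saraf, which inactivates store-operated entry, at 280 ± 28.6 and 293 ± 27.2 CPM.

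Among the 17 calcium-binding proteins of the lumen the direction was the other one. At an unadjusted p under 0.05, 7 genes were higher, against 4.29% of all genes, and 0 were lower. The fold change was above zero for 15 of the 17, against 9153 of all 17823 genes, and the median was 0.12. The smallest p was that of Nucb1, nucleobindin, at 106 ± 4.87 and 122 ± 8.20 CPM (fold change 0.20, SE 0.058, adjusted p 0.338 in edgeR). The most abundant gene was Calr, the buffer calreticulin, at 701 ± 42.0 and 740 ± 55.5 CPM. Several chaperones belong to this list, and astrocyte, endothelial and choroid plexus markers were higher in the same libraries. The part of those cells in the list's values was not tested, nor was that of gene length, along which the genotypes also differed.

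Ryanodine receptor partners and junctophilins had 2 of 14 genes lower and 2 higher at an unadjusted p under 0.05 (3.67% and 4.29% of all genes), with a median of -0.10. S100a1, a calcium-binding protein that acts on ryanodine receptors and is abundant in astrocytes, was at 49.6 ± 4.49 and 61.6 ± 11.0 CPM (fold change 0.31, SE 0.10, adjusted p 0.403 in edgeR), the smallest p of the list. Fkbp1a, which binds and stabilises both kinds of release channel, was the most abundant at 1012 ± 118 and 939 ± 119 CPM.

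The enzymes that make and remove IP3 were balanced, with 12 of 23 below zero, a median of -0.01, and 1 gene lower and 1 higher at an unadjusted p under 0.05, near the 3.67% and 4.29% of all genes. The higher one was Plcd4, a phospholipase C, at 16.2 ± 1.67 and 20.2 ± 2.53 CPM (fold change 0.32, SE 0.096, adjusted p 0.358 in edgeR). All 6 Fmr1 KO libraries were above all wild-type libraries for Plcd4, as they were for 0.213% of all genes. Itpka, the IP3 kinase of dendritic spines, was the most abundant of these enzymes at 378 ± 69.0 and 369 ± 69.6 CPM.

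In the remaining lists 0 or 1 gene passed an unadjusted p under 0.05 in each direction, near the 3.67% lower and 4.29% higher of all genes. Of the 18 measured regulators of IP3 receptors 1 was higher and 0 were lower at an unadjusted p under 0.05 (median 0.02), namely Itpripl1 (fold change 0.47, SE 0.18, adjusted p 0.496 in edgeR), and the most abundant, the calmodulin gene Calm2, was at 3934 ± 525 and 3671 ± 501 CPM. Of 11 other pumps of internal membranes and pump regulators 1 was higher (median 0.09), the skeletal muscle pump Atp2a1, at only 0.177 ± 0.140 and 0.492 ± 0.571 CPM (adjusted p 0.595 in edgeR). Canx, the chaperone calnexin, led that list at 499 ± 20.2 and 506 ± 48.9 CPM. Of 18 genes of membrane contacts and mitochondrial calcium uptake 1 was lower and 1 higher (median 0.03). The higher was Slc8b1, the mitochondrial sodium-calcium exchanger, at 5.69 ± 0.377 and 6.91 ± 1.08 CPM (fold change 0.28, SE 0.12, adjusted p 0.542 in edgeR), and the most abundant was the outer membrane channel Vdac1 at 631 ± 44.8 and 634 ± 46.5 CPM.

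**Figure D5:**
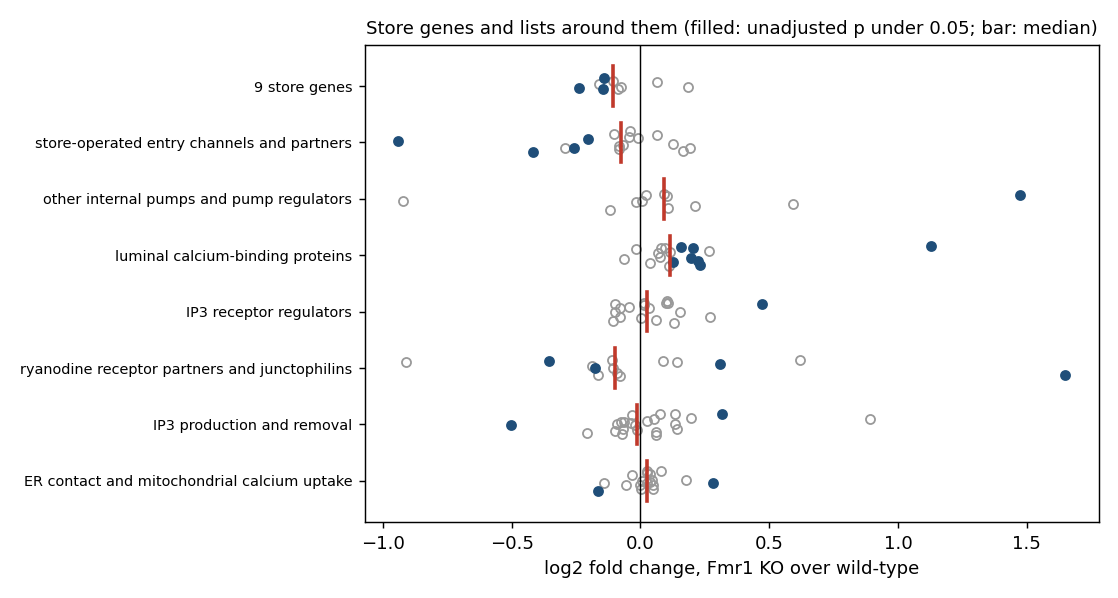
Fold change (log2, Fmr1 KO over wild-type) of each gene in the 9 store genes and in 7 lists around them, with filled points for an unadjusted p under 0.05 and a red bar at each median. The luminal calcium-binding proteins lie mostly above zero (median 0.12) and the store genes mostly below (median -0.11). Gene length, along which the genotypes also differed, was not taken into account here.

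The genes whose levels followed Itpr1 most closely within genotypes were sought among 9692 genes with a mean of at least 10 CPM, by the correlation over the 12 libraries of log2 levels after subtraction of the genotype means. The 5 with the highest r were Wdr46 (r 0.847, rho 0.811), Dpy19l3 (0.844, 0.650), Pde4dip (0.835, 0.748), Gnaq (0.816, 0.734) and Wwc2 (0.813, 0.853). Gnaq encodes the G protein subunit that couples receptors to phospholipase C, and Pde4dip encodes a scaffold of a cyclic AMP phosphodiesterase. Without wild-type replicates 1 and 6, which had the highest and lowest Itpr1 among wild-type libraries, r was 0.467 for Wdr46 and was 0.685 to 0.790 for the other 4. The points share their libraries and depth, and the genes were chosen for this value, so that it is a description. Their own fold changes ranged from -0.31 for Wwc2 and -0.23 for Dpy19l3 (adjusted p 0.273 for both in edgeR) to -0.0021 for Pde4dip.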

How the data were processed

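RNA bound to HA-tagged ribosomes was sequenced in 6 wild-type and 6 Fmr1 KO libraries. The authors prepared stranded libraries of polyadenylated RNA, read 50 bases from single ends, aligned them with TopHat2 2.1.1 and Bowtie2 2.2.8 to mm10, discarded reads with more than 3 mismatches, counted them on the opposite strand of UCSC genes with HTSeq 0.6.1p1 in union mode, and deposited these raw counts for 24079 genes. Which libraries shared a lane is not given in the sources used here. Reads that map to several genes are not counted in union mode.

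The 17823 genes with a total of 15 reads or more were tested with edgeR 4.0.16 in R 4.3.3 (TMM, quasi-likelihood test, no covariate, Benjamini-Hochberg adjustment over all genes, threshold 0.05). The SE of a log2 fold change is its size over the root of F, and the 95% interval uses the corresponding t quantile. Levels are CPM after TMM scaling. Levels per kilobase divide these by the union of GENCODE M21 exons, and a length was found for 93.2% of the genes tested. The fit was checked on simulated counts with planted changes larger than any fold change of the members. That check therefore does not show whether changes of the members' size would be found. DESeq2 1.42.0, limma 3.58.1 voom, other scalings, filters, a robust fit, a replicate block and each library left out were alternatives, and 3 covariates were added after seeing the data.

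The 9 genes, the 7 pathway lists and the 11 marker lists were chosen with earlier results of these data known. Besides the 9 genes, the text names in each list the gene with the smallest p and the one with the highest mean CPM, the 5 genes most like Itpr1, and Fmr1. It also names genes of low level counted at an unadjusted p under 0.05, and the marker genes Camk2a, Ttr and Wfs1. The libraries are pools of mice described as biological replicates. Their counts differed by more than sampling noise in all 30 pairs of the same group (chi-square per degree of freedom 10.8 to 156). All 12 columns were matched to samples. The coding stretch of 1 of the 9 genes is not reported here.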

Additional observations from a re-analysis of the deposited data

How the results depend on the processing

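The results were recomputed under 23 alternatives, 20 of them planned and 3, the covariates, chosen after seeing the data. The number of store genes past the threshold, 0, became 1 with DESeq2's Wald test, which called Itpr1 (log2 fold change -0.24, adjusted p 0.00419), and stayed 0 in the other 22 alternatives; the number in the pathway lists was 0 in all 23. The fold change of Itpr2 turned from 0.06 to -0.031 with the non-neuronal marker score as a covariate (adjusted p 0.990 in edgeR), and no other store gene changed direction. When single libraries were left out, the fold change of Itpr1 ran from -0.26 to -0.22 (adjusted p 0.160 to 0.450 in edgeR), that of Ryr2 from -0.16 to -0.11 and that of Atp2a2 from -0.17 to -0.13. The others moved more for their size, Itpr2 from 0.03 to 0.12, Itpr3 from 0.09 to 0.30, Ryr1 from -0.22 to -0.12, Ryr3 from -0.16 to -0.06, Stim1 from -0.10 to -0.05 and Stim2 from -0.11 to -0.05. The unadjusted p was under 0.05 in 23 of 23 alternatives for Itpr1 and Atp2a2 and in 19 for Ryr2. The labels name no shared litter or day, and the replicate numbers were not taken as pairs, since not every pair was over 0.1: same-numbered libraries deviated from their group means with a mean r of 0.0246 over all genes, where 0 of 6 pairs were over 0.1, of 0.0994 over genes with a mean log2 CPM over 1 (3 of 6) and of 0.155 over those with one over 5 (3 of 6, -0.44 to 0.60). With a replicate block the fold change of Itpr1 was -0.24 (adjusted p 0.173 in edgeR), 0 store genes passed and no call changed. Over all genes 4 passed the threshold in edgeR, 84 with DESeq2, 16 with the length index, 2 with the CA1 score, 1 with the non-neuronal score and 2 to 6 with a library left out. No scaling moved the median of all genes by over 0.1. Depth limits Itpr3, with 37 to 99 reads a library. Lanes are unknown, so a lane effect cannot be told apart from the spread between libraries. Among 18 groups of 6 values of the store genes, no library stood apart from its group by Dixon's criterion.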
